A study of Gallus gallus with 4 samples.

Results

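Endothelial receptor and junction genes were followed in chicken breast muscle through a fixed set of 10 symbols: the VEGF receptors KDR, FLT1 and FLT4, the angiopoietin-system receptors TEK and TIE1, the apelin receptor APLNR, the co-receptor ENG, the adhesion genes CDH5 and PECAM1, and the clotting protein gene VWF. A symbol counted as a member where a row of the expression table carried exactly that gene name. This held for 9 of the 10, among 18973 rows in all, and each of the 9 was on a single row. PECAM1 had no row of its own. The groups were Ross 708, a commercial broiler line, and Isfahani, a native Iranian chicken, both sampled from pectoralis (breast) muscle at day 28 after hatching with no treatment named. RNA of 3 birds of a breed was mixed per pool, and 2 pools per breed were sequenced, so 4 libraries stood for 6 Ross 708 and 6 Isfahani birds. The labels name neither the birds' sex nor the flocks behind each pool. The table holds 1 value per gene and breed, in FPKM (fragments scaled to transcript length and library size), so breed values carry no SD or n. Its columns are headed Commercial and Native, and Commercial was taken as Ross 708 because it was the other breed of the study. Sequencing depth is unknown.

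Blood vessels are lined by endothelial cells. VEGF ligands act on KDR to drive vessel growth and permeability, and FLT1 also binds such ligands. VEGFC and VEGFD act on FLT4, best known from lymphatic vessels. Angiopoietins act on TEK, with TIE1 as its partner, to steady mature vessels. CDH5 (VE-cadherin) and PECAM1 hold neighbouring endothelial cells together, and in muscle the capillaries run between the fibres and supply them. Most of these roles are known from mouse and human.

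APLNR was higher in Ross 708, at 4.92 FPKM in Ross 708 and 1.21 FPKM in Isfahani, a 4.07-fold difference. The other 8 members all had a higher FPKM in Ross 708 too, by 1.18-fold for TEK to 1.69-fold for KDR, and none of these 8 passed the test. A row was called when its q-value in the authors' deposited table was at or under 0.05. By that measure 1 of 9 members was called higher in Ross 708 and 0 lower, where 3.07% and 2.14% of the 11626 tested rows were called in those directions. A call on a single gene is too few to set the set's share apart from that background. At an unadjusted p under 0.05 in the authors' deposited table there were 2 members, APLNR and KDR, and such p-values made up 17.0% of tested rows. An FPKM above that of Isfahani was seen in 9 of 9 members and in 46.5% of all tested rows. These p-values speak at most for the spread between these pools. The members were chosen with earlier results of these data known, so the shares above are description only.

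Sizes are given from here on as a log2 ratio, log2 of (Ross 708 FPKM + 1) over (Isfahani FPKM + 1), which is positive where Ross 708 is higher and understates the difference of low genes. The median log2 ratio of the 9 members was 0.35, with a range of 0.16 to 1.42, beside a median of -0.034 over all tested rows. Without APLNR the median of the remaining 8 was also 0.35, and their range narrowed to 0.16 to 0.46. The summed level of all 9 was 73.1 FPKM in Ross 708 and 52.6 FPKM in Isfahani, a 1.39-fold difference, and that of the 8 without APLNR was 68.2 and 51.4 FPKM, a 1.33-fold difference. Without a pseudocount the log2 ratio was 0.76 for KDR and 0.58 for FLT4, against 0.46 and 0.35 with it. On rescaling to a common sum over all rows it was 0.073 for TEK, 0.16 for ENG and 0.22 for VWF, against 0.16, 0.29 and 0.34 as deposited. In whole-tissue RNA, fewer cells of a type and less RNA per cell cannot be told apart, and this holds for every result below. No value per pool was used here, so no exact test over samples could be run, and whether APLNR differed more than its neighbours in the set was not tested.

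**Figure D1:**
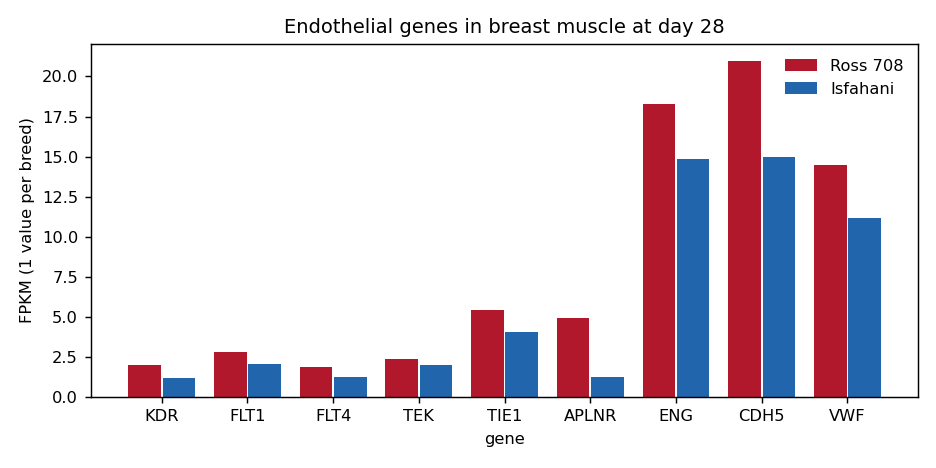
FPKM (vertical axis) of the 9 measured endothelial genes (horizontal axis), with the Ross 708 bar left of the Isfahani bar for each gene and 1 value per breed, so no error bars. Every Ross 708 bar is the taller of its pair, and the largest relative gap is that of APLNR, at 4.92 FPKM in Ross 708 and 1.21 FPKM in Isfahani.

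APLNR encodes a G protein-coupled receptor for the peptide apelin, known from mouse and frog for roles in vessel growth and heart development. Its row lies on chromosome 5 of the galGal5 build, from 16355388 to 16356501, a locus of 1114 bases that no other row overlaps. Its log2 ratio was 1.42, and its q-value in the authors' deposited table was 0.0357 (unadjusted p = 0.0016), while 1.08% of tested rows had a higher log2 ratio. With the threshold set at 0.01, no member was called (1.74% of tested rows were called higher and 0.989% lower), and with 0.1 APLNR was again the 1 member called (4.32% higher and 3.18% lower). APLNR was a low gene, with a mean level exceeded by 70.7% of tested rows. Its rank by FPKM among the 9 members was 5 in Ross 708 and 8 in Isfahani. Set against CDH5, an adhesion gene of endothelial cells, its level was 23.4% of the CDH5 level in Ross 708 and 8.08% in Isfahani. Its ligand genes APLN and APELA had no row of their own, so they are not analysed here.

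KDR encodes the main signalling receptor for VEGFA. Its level was 1.99 FPKM in Ross 708 and 1.18 FPKM in Isfahani, with a log2 ratio of 0.46 (the authors' deposited table has q = 0.201 and unadjusted p = 0.0253). KDR was thus the member nearest to a call after APLNR, and 14.9% of tested rows had a higher log2 ratio. FLT1 encodes a receptor for VEGFA and PGF that is known from mouse to hold back VEGF signalling by binding the ligand. It stood at 2.83 FPKM in Ross 708 and 2.03 FPKM in Isfahani, with a log2 ratio of 0.34 (the authors' deposited table has q = 0.493). FLT4, the receptor of VEGFC and VEGFD, stood at 1.86 FPKM in Ross 708 and 1.25 FPKM in Isfahani, with a log2 ratio of 0.35 (the authors' deposited table has q = 0.323). All 3 were low and close in level. Summed over the 3 receptors the level was 6.68 FPKM in Ross 708 and 4.45 FPKM in Isfahani. FLT1 had 1.42 times the FPKM of KDR in Ross 708 and 1.73 times in Isfahani.

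These receptor genes have neighbours that encode related receptor kinases. KDR (chromosome 4, 64794086 to 64824189) lay 54365 bases from KIT and 179556 bases from PDGFRA. FLT4 (chromosome 13, 12667832 to 12714163) lay 55127 bases from CSF1R, a macrophage receptor gene, and 75283 bases from PDGFRB, a pericyte receptor gene, while FLT1 (chromosome 1, 175084525 to 175188062) lay 93830 bases from FLT3. These neighbours were picked by name and are not always the next genes along, and they were looked up after the members' values had been seen. In the RefSeq gene table of the GRCg7b build, TRIM105 and RNF130 lie next to FLT4. Both picked chromosome 13 neighbours of FLT4 were called higher in Ross 708, as were 3.07% of all tested rows. Whether this region differs from others was not tested. CSF1R stood at 40.4 FPKM in Ross 708 and 19.99 FPKM in Isfahani, and PDGFRB at 10.03 FPKM in Ross 708 and 5.08 FPKM in Isfahani (q = 0.0078 for each in the authors' deposited table). On chromosome 4, KIT stood at 0.781 FPKM in Ross 708 and 0.271 FPKM in Isfahani, and PDGFRA at 25.6 FPKM in Ross 708 and 22.5 FPKM in Isfahani, and neither was called. FLT3 was too low for the authors' test. The FLT1 locus also holds an unnamed row and a microRNA row, so FLT1 is less certain.

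TEK encodes the angiopoietin receptor, and TIE1 a related receptor that modulates it. TEK (chromosome Z, 68385916 to 68425628) stood at 2.34 FPKM in Ross 708 and 1.98 FPKM in Isfahani, with a log2 ratio of 0.16 (the authors' deposited table has q = 0.785). It had the smallest log2 ratio of the 9, and 32.2% of tested rows had a higher one. TEK is the only member on a sex chromosome. Rows on Z with at least 1 FPKM in both breeds had a median log2 ratio of -0.052 (518 rows), beside -0.051 on the other chromosomes (9502 rows). TIE1 (chromosome 8, 18559768 to 18571913) stood at 5.41 FPKM in Ross 708 and 4.02 FPKM in Isfahani, with a log2 ratio of 0.35 (the authors' deposited table has q = 0.493). TIE1 exceeded TEK 2.32-fold in Ross 708 and 2.03-fold in Isfahani.

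ENG encodes endoglin, a co-receptor for BMP and TGF-beta ligands on endothelial cells. It stood at 18.3 FPKM in Ross 708 and 14.8 FPKM in Isfahani, with a log2 ratio of 0.29 (the authors' deposited table has q = 0.759). Its locus (chromosome 17, 4882856 to 4896134) is shared with FPGS, a folate enzyme gene at 2.68 FPKM in Ross 708 and 2.80 FPKM in Isfahani, so reads of the pair may be split uncertainly.

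CDH5 was the most highly expressed member per length. It stood at 20.98 FPKM in Ross 708 and 14.9 FPKM in Isfahani (chromosome 11, 10982090 to 11011519), with a log2 ratio of 0.46 (the authors' deposited table has q = 0.350 and unadjusted p = 0.0698). VWF, which carries a clotting factor and tethers platelets, or in birds thrombocytes, to damaged vessels, stood at 14.5 FPKM in Ross 708 and 11.2 FPKM in Isfahani (chromosome 1, 74338878 to 74476749), with a log2 ratio of 0.34 (the authors' deposited table has q = 0.518). Neither was called. PECAM1 shares a row with POLG2, a mitochondrial polymerase gene (chromosome 18, 6813291 to 6858204). That joint row stood at 39.4 FPKM in Ross 708 and 35.5 FPKM in Isfahani (q = 0.873 in the authors' deposited table), and no part of it can be given to PECAM1. In the RefSeq gene table of the GRCg7b build MILR1 follows PECAM1.

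By level the members fell into the same upper order in both breeds. CDH5, ENG, VWF and TIE1 led, in that order, in Ross 708 and in Isfahani. Below them the order was APLNR, FLT1, TEK, KDR and FLT4 in Ross 708, and FLT1, TEK, FLT4, APLNR and KDR in Isfahani. With no spread between pools, neighbours in these orders cannot be said to differ. The 3 leading genes ranged from 14.5 to 20.98 FPKM in Ross 708 and from 11.2 to 14.9 FPKM in Isfahani, and the 3 VEGF receptors from 1.86 to 2.83 FPKM in Ross 708 and from 1.18 to 2.03 FPKM in Isfahani.

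**Figure D2:**
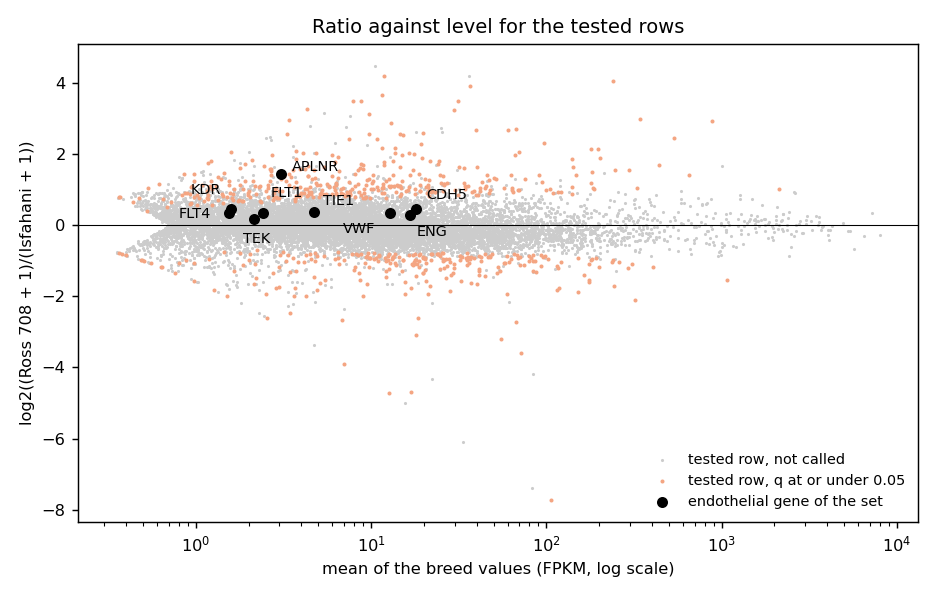
Log2 ratio of Ross 708 over Isfahani (vertical axis, with 1 FPKM added to each value) against the mean of the breed values (horizontal axis, FPKM on a log scale) for the tested rows above 0, with called rows in orange and the 9 endothelial genes in black. APLNR lies at 1.42, apart from the other 8, which lie between 0.16 and 0.46 within the upper part of the bulk of the rows.

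The partners of these receptors were described through 7 further lists of ligands, signalling partners, junction genes and other endothelial genes. These lists were chosen with earlier results of these data known, so the shares below are description only. Their 108 symbols gave 73 tested genes. Of these, 5 were called higher in Ross 708 (6.85%, beside 3.07% of all tested rows) and 0 lower, and 68 were not called. The FPKM was higher in Ross 708 for 55 of the 73 (75.3%, beside 46.5% of all tested rows), and the median log2 ratio was 0.31.

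Among VEGF ligands and co-receptors, 2 of 6 were called, both higher in Ross 708. For this and each list below, the shares over all tested rows were 3.07% called higher, 2.14% called lower and 46.5% higher in FPKM. PGF, placenta growth factor, a ligand of FLT1, stood at 19.8 FPKM in Ross 708 and 8.47 FPKM in Isfahani, with a log2 ratio of 1.13 (the authors' deposited table has q = 0.0078). NRP1, a co-receptor that KDR uses, stood at 21.9 FPKM in Ross 708 and 10.5 FPKM in Isfahani, with a log2 ratio of 0.99 (the authors' deposited table has q = 0.00612). The other ligands and the second co-receptor were not called. VEGFA stood at 11.8 FPKM in Ross 708 and 9.96 FPKM in Isfahani, and NRP2, a co-receptor of FLT4, at 22.1 FPKM in Ross 708 and 16.1 FPKM in Isfahani. Both ligands of FLT4 had lower values in Ross 708, with FIGF (the VEGFD gene) at 25.8 FPKM in Ross 708 and 28.1 FPKM in Isfahani and VEGFC at 0.975 FPKM in Ross 708 and 1.48 FPKM in Isfahani. PGF thus had 1.68 times the FPKM of VEGFA in Ross 708 and 0.85 times in Isfahani. The median log2 ratio of the 6 was 0.33. As values of whole muscle, they do not show which cells made these RNAs.

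None of the 4 angiopoietin-system genes was called, and all 4 had higher values in Ross 708 (median log2 ratio 0.43). PTPRB, a phosphatase that acts on TEK and on CDH5 complexes, stood at 6.46 FPKM in Ross 708 and 3.71 FPKM in Isfahani (q = 0.0626 in the authors' deposited table). ANGPT1, the activating ligand of TEK, stood at 1.39 FPKM in Ross 708 and 1.19 FPKM in Isfahani. ANGPT2, known as a context-dependent antagonist, stood at 4.09 FPKM in Ross 708 and 2.98 FPKM in Isfahani, and its locus is shared with MCPH1. ANGPT4 stood at 6.82 FPKM in Ross 708 and 4.49 FPKM in Isfahani (q = 0.232 in the authors' deposited table).

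**Figure D3:**
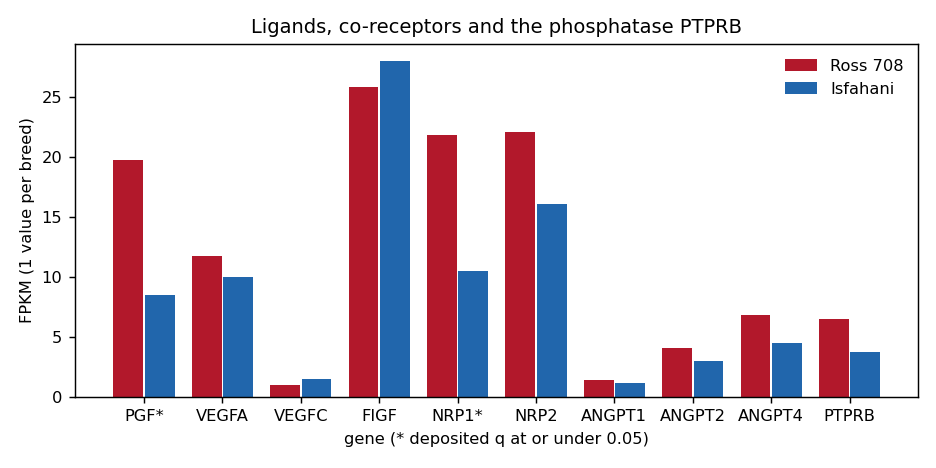
FPKM (vertical axis) of the ligands, co-receptors and the phosphatase PTPRB (horizontal axis), with the Ross 708 bar left of the Isfahani bar, 1 value per breed and an asterisk at genes called in the authors' deposited table. PGF and NRP1 carry the asterisk, while FIGF and VEGFC have the lower bar in Ross 708.

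The genes around ENG gave 7 tested members and no call, with a median log2 ratio of 0.53. ACVRL1, the type I receptor that works with ENG, was listed at 0 in both breeds on an unplaced scaffold and was not tested. ID1 and ID2, transcription regulators induced by BMP signals, stood at 108 and 35.3 FPKM in Ross 708 and at 59.5 and 21.1 FPKM in Isfahani (q = 0.0622 and 0.114 in the authors' deposited table). The signal carrier genes SMAD1 and SMAD5 had lower values in Ross 708, at 16.3 and 20.1 FPKM in Ross 708 and 28.4 and 23.6 FPKM in Isfahani (q = 0.0772 and 0.873 in the authors' deposited table). SMAD5 shares its locus with 4 other rows. All values of this list are of whole muscle, so none can be assigned to endothelial cells.

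All 11 tested junction partners had higher values in Ross 708, and none was called (median log2 ratio 0.33). The catenin gene CTNNB1, whose protein binds the tail of CDH5, stood at 50.98 FPKM in Ross 708 and 39.01 FPKM in Isfahani. JUP, which binds the same tail, stood at 48.4 FPKM in Ross 708 and 31.4 FPKM in Isfahani, and CTNNA1, which links catenins to actin, at 37.7 FPKM in Ross 708 and 24.9 FPKM in Isfahani. JAM3, a junctional adhesion gene, stood at 12.98 FPKM in Ross 708 and 11.7 FPKM in Isfahani. Their q-values in the authors' deposited table ran from 0.194 for JUP and CTNNA1 to 0.874 for JAM3, and CTNNB1 had 0.502. Catenins are made by many cell types, so their values are not specific to vessels.

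Of 22 other endothelial genes tested, 2 were called, both higher in Ross 708. FABP4, a fatty acid carrier of capillary endothelium and of adipocytes, stood at 320 FPKM in Ross 708 and 86.7 FPKM in Isfahani, with a log2 ratio of 1.87 (the authors' deposited table has q = 0.00245). CAV1, a caveola protein gene that other cell types also use, stood at 84.4 FPKM in Ross 708 and 44.3 FPKM in Isfahani, with a log2 ratio of 0.91 (the authors' deposited table has q = 0.0369). The 20 others were not called, and the list's median log2 ratio was 0.31. Values were on both sides, with 16 of the 22 higher in Ross 708. RAMP2, a receptor partner for adrenomedullin, stood at 52.1 FPKM in Ross 708 and 44.4 FPKM in Isfahani, and EMCN, endomucin, at 16.7 FPKM in Ross 708 and 10.5 FPKM in Isfahani. CD34 had close values, at 19.9 FPKM in Ross 708 and 20.1 FPKM in Isfahani, and the anticoagulant receptor gene THBD was lower in value, at 25.4 FPKM in Ross 708 and 37.5 FPKM in Isfahani (q = 0.308 in the authors' deposited table). PLVAP and GPR182 were listed at 0 in both breeds on unplaced scaffolds.

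Of 12 endothelial transcription factors tested, KLF4 was called. KLF4, a flow-responsive factor that other cell types also use, stood at 37.8 FPKM in Ross 708 and 16.3 FPKM in Isfahani, with a log2 ratio of 1.17 (the authors' deposited table has q = 0.0078). Its relative KLF2 stood at 94.2 FPKM in Ross 708 and 56.5 FPKM in Isfahani (q = 0.156 in the authors' deposited table). FLI1 stood at 13.8 FPKM in Ross 708 and 9.49 FPKM in Isfahani, while NR2F2, a factor of veins, stood at 18.02 FPKM in Ross 708 and 21.7 FPKM in Isfahani and MEF2C, abundant in muscle fibres, at 77.6 FPKM in Ross 708 and 88.4 FPKM in Isfahani. The list's median log2 ratio was 0.41.

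The Notch and ephrin genes of arteries and veins showed no call among 11 tested, and their median log2 ratio of 0.044 was near that of all rows. HEY1, a Notch target, stood at 18.1 FPKM in Ross 708 and 18.7 FPKM in Isfahani, and HEYL at 13.4 FPKM in Ross 708 and 9.03 FPKM in Isfahani. The ligand gene JAG2 stood at 5.27 FPKM in Ross 708 and 5.82 FPKM in Isfahani, and the arterial connexin gene GJA4 at 3.73 FPKM in Ross 708 and 5.75 FPKM in Isfahani (q = 0.321 in the authors' deposited table). In this group the values lay on both sides, with 6 of 11 higher in Ross 708.

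**Figure D4:**
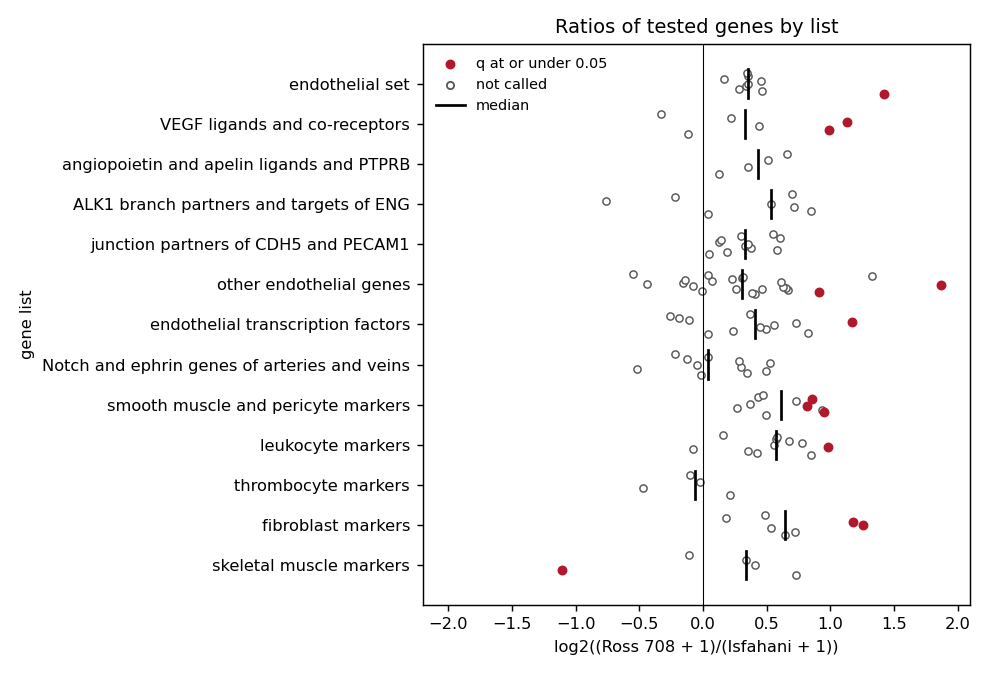
Log2 ratio of Ross 708 over Isfahani (horizontal axis, with 1 FPKM added to each value) for each tested gene, by gene list (vertical axis), with red points for genes called in the authors' deposited table, open points for genes not called and a bar at the list's median. The endothelial set has its median at 0.35 and 1 red point, APLNR, while the smooth muscle, leukocyte and fibroblast markers have medians of 0.61, 0.57 and 0.64.

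Markers of other cell types that the tissue can hold were read from the same values. Over all tested rows 3.07% were called higher and 2.14% lower in Ross 708, and 46.5% had the higher FPKM there. The 10 tested genes of the smooth muscle and pericyte list all had higher values in Ross 708, with a median log2 ratio of 0.61. Their summed level was 151 FPKM in Ross 708 and 94.5 FPKM in Isfahani. Called among them were PDGFRB (values above), ACTA2, smooth muscle actin, at 21.3 FPKM in Ross 708 and 10.5 FPKM in Isfahani, and MCAM, an adhesion gene of pericytes and endothelium, at 19.02 FPKM in Ross 708 and 10.4 FPKM in Isfahani (q = 0.0174 and 0.0254 in the authors' deposited table). The abundant ABCC9 and RGS5 were not called, at 31.5 and 29.1 FPKM in Ross 708 and 22.1 and 21.3 FPKM in Isfahani. ABCC9 is also made by muscle fibres, so its value is not specific to pericytes. The median of this list lay above the log2 ratios of CDH5, VWF and ENG (0.46, 0.34 and 0.29). That median was set by ABCC9 and PDGFB, at log2 ratios of 0.49 and 0.73. PDGFB encodes a ligand of PDGFRB and is not a marker of these cells, and its locus is shared with 10 other rows. Without PDGFB the middle gene of the list would be ABCC9, close to CDH5. The log2 ratios of the list ran from 0.27 to 0.95, and RGS5, at 0.43, lay below CDH5. Whether the gap between this median and the endothelial values exceeds the spread between pools was not tested.

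Of 11 tested leukocyte markers, 10 had higher values in Ross 708 and CSF1R was called (values above), with a median log2 ratio of 0.57 and a summed level of 3120 FPKM in Ross 708 and 2391 FPKM in Isfahani. CD74 made up most of that sum, at 2734 FPKM in Ross 708 and 2138 FPKM in Isfahani, followed by CTSS at 195 FPKM in Ross 708 and 132 FPKM in Isfahani and LAPTM5 at 70.5 FPKM in Ross 708 and 43.7 FPKM in Isfahani. All 7 tested fibroblast markers had higher values in Ross 708, with a median log2 ratio of 0.64 and a summed level of 3078 FPKM in Ross 708 and 1893 FPKM in Isfahani. LUM, at 249 FPKM in Ross 708 and 109 FPKM in Isfahani, and FN1, at 66.4 FPKM in Ross 708 and 27.2 FPKM in Isfahani, were called (q = 0.00245 for each in the authors' deposited table). COL3A1, DCN and COL1A2 were not, at 1582, 485 and 476 FPKM in Ross 708 and 957, 334 and 304 FPKM in Isfahani. COL1A1 was listed at 0 in both breeds on an unplaced scaffold, with a locus of 393 bases. It was not tested, so this zero does not show that its RNA was absent.

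The thrombocyte markers were low, with 4 of 11 symbols tested, 1 of the 4 higher in value in Ross 708, and a summed level of 5.51 FPKM in Ross 708 and 6.16 FPKM in Isfahani. Among them, TUBB1 stood at 3.16 FPKM in Ross 708 and 3.47 FPKM in Isfahani, and GP1BB at 0.971 FPKM in Ross 708 and 0.699 FPKM in Isfahani. None of the 4 was called. No erythroid marker was tested. HBAA and HBAD were listed at 0 in both breeds on an unplaced scaffold, so these zeros do not show that their RNA was absent. The part of smooth muscle, leukocyte and fibroblast RNA in the endothelial values was not tested. Among the partner and marker genes named here, ACTA2, ABCC9, PDGFB, FLI1, CTNNA1, PDGFRA and CD74 also share loci with other rows, CD74 with 14 of them. So do the skeletal muscle genes CASQ2 and TTN, and all of these are less certain.

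The tissue was checked against skeletal muscle genes. CASQ2, TTN and MYOD1 were abundant, at 1086, 299 and 110 FPKM in Ross 708 and 653, 322 and 238 FPKM in Isfahani. MYOD1 was the 1 called skeletal muscle marker of 5 tested, lower in Ross 708. Of the 5, 3 had higher values in Ross 708. The median log2 ratio of the 5 was 0.34, the value of a single gene, and their range was -1.10 to 0.73. With so few genes spread this widely, that median cannot be set against the 0.35 of the endothelial members as a shift of muscle fibre RNA. The status HIDATA marked 39 untested rows, all listed at 0 in Isfahani. Some of them are at 0 in both breeds, such as ACTA1 and MYL1, while the troponin genes TNNI2, TNNT3 and TNNC2 carry 13272, 11956 and 11511 FPKM in Ross 708, so HIDATA rows allow no comparison of breeds.

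In the deposited gene ontology sheets APLNR was listed under broad terms of signalling and regulation as well as terms of development. The sheet titled UP GO Native held called genes all lower in Ross 708. Those titled Down GO Ross and Down Kegg Ross held called genes all higher in Ross 708. What Down refers to is not stated, so these titles may conflict with the direction used here, which follows the expression columns. APLNR was in 29 of the 1095 terms of the Down GO Ross sheet. Of these 29, 27 had a Benjamini value at or under 0.05 in the authors' deposited table, as did 474 of the 1095 terms. The cardiovascular system development term held 52 genes at 3.35-fold enrichment in the authors' deposited table, APLNR, PGF, NRP1, CAV1, KLF4 and PDGFRB among them. The angiogenesis term held 30 genes at 4.45-fold enrichment in the authors' deposited table, with PGF, NRP1, CAV1, KLF4 and PDGFRB but not APLNR. No other member was in any term of the 3 sheets. Nearly all genes of the sheets were called genes (164 of 164, 269 of 271 and 84 of 85). The absence of members without a call was thus set beforehand and says nothing about them. The sheets were made from the same calls, so they are not independent evidence of direction.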

How the data were processed

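Per the labels' protocols, Trizol-extracted RNA was pooled within a breed and made into TruSeq version 2 libraries, read from both ends over 150 bases. Cufflinks 2.2.1, HISAT2, Trimmomatic and FastQC 0.11.5 are named with galGal5 in the submitters' processing notes; for the annotation, library scaling, strand use and dispersion model nothing is stated in the sources at hand. The deposited table gives 1 FPKM per breed, the authors' log2 fold change, test statistic (a score, not used here, per the file headers), p-value and q-value. The deposited sheets of terms give the authors' gene count, fold enrichment as a ratio, and p-values. Deposited q-values matched Benjamini-Hochberg values over the 11626 tested rows to within 5.22e-07. The smallest deposited p-value was 5e-05.

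Computed here with Python 3.11.15 and pandas 2.3.3 were log2 ratios with a pseudocount of 1 FPKM, calls at a deposited q of 0.05, and counts and medians per list. A symbol on several rows was taken from the one of highest mean FPKM. No test of breed difference was run, since 1 value per breed allows none. The calculation was tested on simulated data whose p-values were set in advance, which checks the arithmetic alone. Of 187 list symbols 138 had a row of their own. Members and lists were chosen with earlier results of these data known. Named from each list were its called genes and the 4 uncalled tested genes with the highest mean FPKM (for markers of other cell types, the 3 highest of the list), plus VEGFA, PGF, ANGPT1, ANGPT2, APLN and ACVRL1; 1 gene that the rule names is not reported here. The neighbours of the receptor genes, PLVAP, GPR182, PDGFB and the genes listed at 0 were named outside that rule, after their values were seen. Start and end are as deposited. The RefSeq table of GRCg7b, which holds all 10 member symbols, was used for names and neighbours alone. Alternatives were other pseudocounts, rescaling, centring, a minimum of 1 FPKM and q thresholds of 0.01 and 0.1.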

Additional observations from a re-analysis of the deposited data

How the results depend on the processing

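All 9 members kept a higher value in Ross 708 under every pseudocount, rescaling and centring tried. The median log2 ratio of the members, 0.35, became 0.46 with a pseudocount of 0.1 FPKM, 0.48 with none and 0.24 on rescaling to a common sum over all rows. That rescaling took the median of the tested rows reaching 1 FPKM in each breed to -0.17, against -0.051 as deposited, because the 39 HIDATA rows are listed at 0 in Isfahani; the members' median stayed above it. Among single members, KDR and FLT4 moved by over 1.5 times with the smaller pseudocount (to 0.71 and 0.54) and with none (to 0.76 and 0.58), and TEK, ENG and VWF on rescaling over all rows (to 0.073, 0.16 and 0.22). Rescaling over tested rows, centring, a minimum of 1 FPKM and leaving out APLNR (an alternative chosen after seeing the data) moved the median by at most 0.1. At a q-value threshold of 0.01 the number of members called fell to 0, other endothelial genes and smooth muscle markers to 1 each, and skeletal muscle markers to 0. At a threshold of 0.1, angiopoietin-system genes had 1 call and genes around ENG 2 higher and 1 lower in Ross 708. Endothelial transcription factors then had 2 calls and leukocyte markers 3. Over all tested rows, 4.32% were called higher and 3.18% lower at 0.1, and 1.74% higher and 0.989% lower at 0.01. No paired analysis was possible because the table used holds 1 value per breed, and for the same reason no pool could be left out. Depth is unknown, so how far it limits the low receptor genes cannot be stated.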
